A study of Mus musculus with 30 samples.

Results

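The genes described here carry glucose into T cells, break it down and carry lactate out. They are 10 genes chosen by symbol: the glucose transporters Slc2a1 and Slc2a3, the lactate exporter Slc16a3, the glycolysis enzymes Hk2, Pfkp, Aldoc, Tpi1 and Pgk1, lactate dehydrogenase A (Ldha) and the kinase Pdk1, which restrains the use of pyruvate in mitochondria. The choice was made with earlier results of these data known. All 10 were found among the 19938 genes that the arrays measured. They were represented by 12 array rows, 3 of them for Pgk1 and 1 for each of the others.

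Resting T cells burn little glucose and feed much of it into mitochondria, whereas activated T cells take up more glucose and ferment part of it to lactate even when oxygen is present. Hexokinase (Hk2) traps glucose as glucose 6-phosphate, phosphofructokinase (Pfkp) commits it to glycolysis, aldolase (Aldoc) splits it, triosephosphate isomerase (Tpi1) interconverts the products and phosphoglycerate kinase (Pgk1) makes ATP. Lactate dehydrogenase regenerates the cofactor NAD+, and genes of this pathway are known targets of the transcription factors HIF-1 and MYC.

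The samples were Pmel-1 CD8+ T cells. They came from the spleens of adult C57BL/6 mice of 6 to 12 weeks, which the labels give as female. Pmel-1 is a transgenic T cell receptor, which every group carried. TMem cells had been differentiated to a memory state in culture and carried Ly5.2, and TN cells were naive and carried Ly5.1. Of the 10 groups of 3 arrays, TMem mix, TMem alone, TN mix and TN alone had been stimulated for 18 h or 96 h, and TMem alone and TN alone were also taken at 0 h. Stimulation was by antibodies to CD3 and CD28 with IL-2, mix means that both cell types shared a culture, and flow cytometry sorting gave the cells of each group. The submitters called the triplicates biological repeats. As models, the TMem cells were made in vitro, all cells carried 1 receptor specificity, and the stimulus bypassed antigen.

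Levels below are deposited log2 probe set values, differences are differences between group means on that scale, and a gene was called when its adjusted p in the limma fit over all genes was below 0.05. Probe sets differ in how brightly they bind, so levels were compared between groups and not between genes. The 7 measured T cell markers were above background in all groups. The labels were matched by sex chromosome transcripts only in TN alone at 0 h and 96 h. All 15 TMem arrays had low Xist (4.99 to 6.02) and the Y-linked Eif2s3y between 8.82 and 9.51. Xist was near background in all TMem groups but TMem mix at 18 h, where its mean was 5.86 and the lower quartile 5.68. TN arrays had Xist between 9.34 and 12.1. Eif2s3y was near background in TN alone at 0 h (3.997 to 4.576) and at 96 h (4.13 to 4.20). It was present in TN mix at 18 h (8.21 to 8.50) and TN alone at 18 h (8.09 to 8.25), and in TN mix at 96 h (7.34 to 7.89). Whole groups were affected. Of the comparisons, only TN alone at 96 h against 0 h held no array at odds with the labels, although all arrays gave the estimate of spread. In TMem against TN the sex of the donors and the cell type cannot be told apart. Among the 0 h arrays, TMem replicate 3 had lower levels of 9 of the 10 genes than the other TMem arrays at that time, and TN replicate 1 correlated least with its group (lowest r = 0.978). Bulk RNA also cannot tell fewer expressing cells from less RNA per cell.

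Over the 10 group means, 8 genes were highest in a TMem group at 96 h, Hk2 was highest in TMem alone at 18 h and Pdk1 in unstimulated TN cells. The mean level of Aldoc spanned 4.24, between 6.13 in TN mix at 18 h and 10.37 in TMem mix at 96 h, a factor of 18.9. Hk2 spanned 3.15, Slc16a3 2.95, Tpi1 2.52, Slc2a3 2.50, Pfkp 2.27, Slc2a1 2.25, Pgk1 1.59, Pdk1 1.39 and Ldha 1.04. The lowest Aldoc mean stood not far above the lower quartile of its group (5.73). Ldha means ran from 12.02 to 13.06, where the highest value on any array was 14.2. What these positions did to the spans was not tested. The lowest mean was that of TN alone at 0 h for Slc2a1, Slc16a3, Hk2, Pfkp, Tpi1, Pgk1 and Ldha. Neighbours in the order of group means often overlapped in their arrays: this held for 7 of the 9 neighbouring pairs for Slc16a3 and for 2 of the 9 for Slc2a1. Groups did not overlap where Slc2a1 ran down TMem mix at 96 h (12.33), TMem alone at 96 h (12.20), TN mix at 96 h (11.98) and TMem alone at 18 h (11.63).

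**Figure D1:**
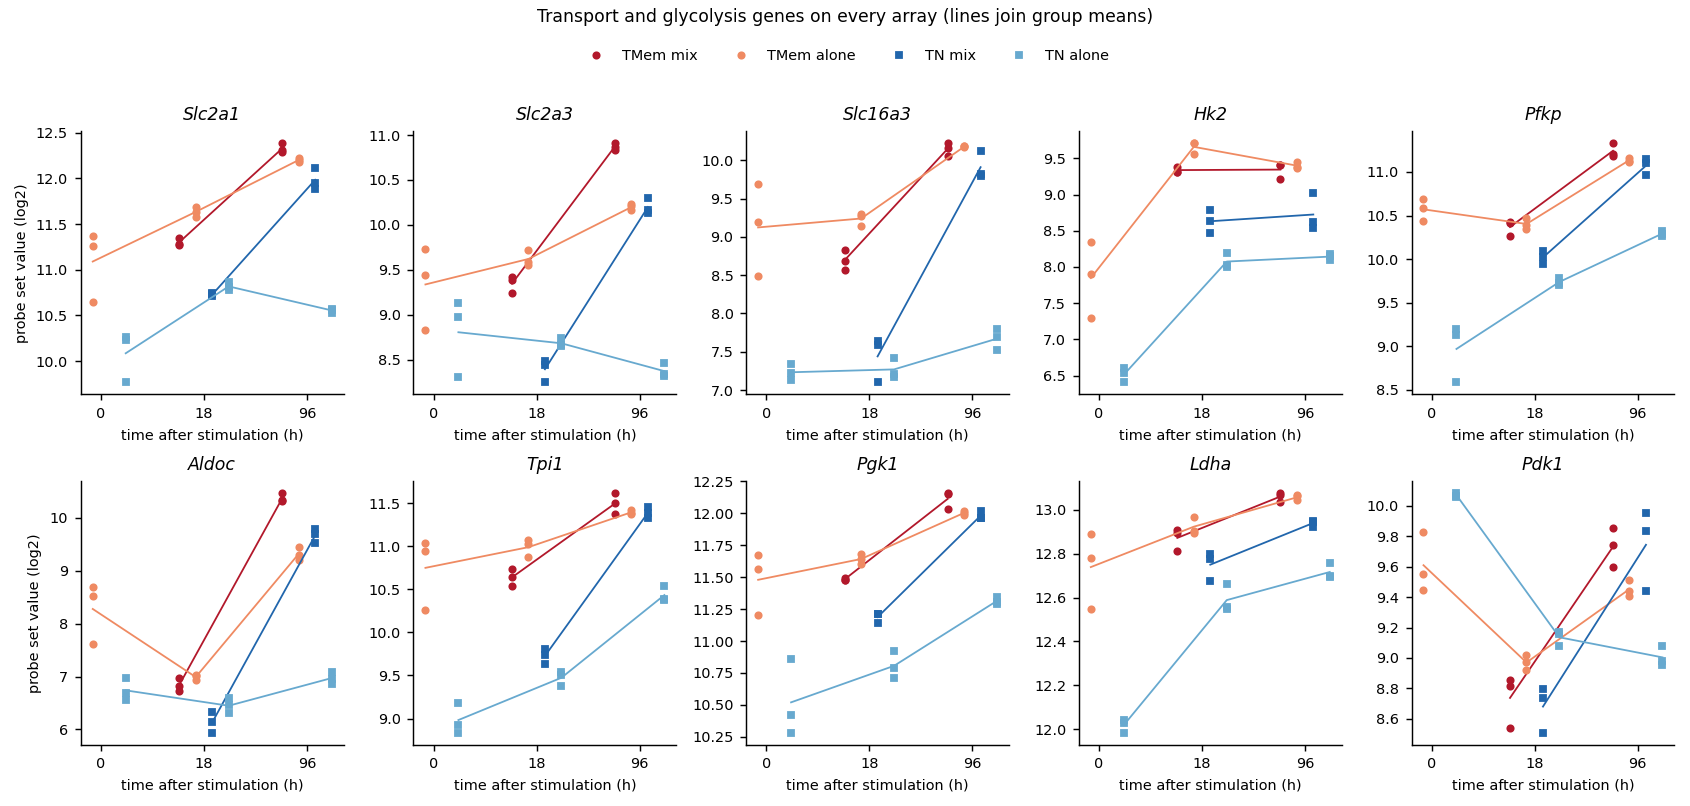
Log2 probe set value (vertical axis, a scale of its own in each panel) of each gene on every array against hours of stimulation (horizontal axis, times equally spaced); each point is 1 array, circles are TMem and squares TN, and lines join group means of 3 arrays. TN mix reached 9.67 for Aldoc at 96 h, against 6.97 in TN alone, while Pdk1 was highest in TN alone at 0 h (10.07).

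Across the 10 group means, 8 of the 10 genes followed a shared course, described here without a test. The correlation of a gene with the mean of the other 9 was 0.97 for Slc2a1 and Slc16a3, 0.96 for Pgk1, 0.95 for Tpi1, 0.94 for Pfkp, 0.92 for Slc2a3, 0.85 for Aldoc and 0.82 for Ldha. It was 0.63 for Hk2 and 0.19 for Pdk1. The closest pairs were Pfkp with Pgk1 and Tpi1 with Pgk1 (r = 0.98 each, n = 10 group means), and the most opposed was Hk2 with Pdk1 (r = -0.47). Among all other genes, the group means of Gys1, muscle glycogen synthase, were most like the mean of the 10 (r = 0.992), followed by Insrr (0.985), Snx25 (0.979), Aldoart1 (0.979) and Ak4 (0.978), an adenylate kinase of mitochondria. Gys1 had mean levels of 9.40 in TMem mix, 9.04 in TMem alone, 8.96 in TN mix and 7.84 in TN alone at 96 h. Aldoart1 is a retrogene related to the aldolase Aldoa, so its probe set may also bind transcripts of that gene. The genes most like Hk2 were Tbl2 (0.992), Lrrc59 (0.988) and Gars (0.986), a transfer RNA synthetase. Those most like Pdk1 were Hes6 (0.971), Hal (0.955) and Tmem218 (0.952).

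Promoter windows were searched for letters of known binding motifs. Those shown, for 6 of the genes, all held a motif. RefSeq (assembly GRCm38.p6) gave windows from 250 bases before to 50 after the start for 9 of the 10 genes, 12 windows in all. The windows were searched on both strands for the core of the hypoxia response element, ACGTG or GCGTG, to which HIF-1 can bind, and for the E-box CACGTG, to which MYC can bind. The E-box contains the letters ACGTG on each strand, so each E-box counts as 2 cores. A core stood in 10 of the 12 windows, against 43.8% of all 32851 windows. By gene, it stood in 8 of the 9 with a window, where Aldoc, Ldha and Pdk1 had 2 windows each. No share by gene was taken over all genes. The E-box stood in 1 window, that of Ldha, against 7.15% of all windows. Matches are letters and not shown sites. In the sequences below, 5′ to 3′, capitals mark these motifs on either strand.
Slc2a1, chr4:119108495-119108794, plus strand: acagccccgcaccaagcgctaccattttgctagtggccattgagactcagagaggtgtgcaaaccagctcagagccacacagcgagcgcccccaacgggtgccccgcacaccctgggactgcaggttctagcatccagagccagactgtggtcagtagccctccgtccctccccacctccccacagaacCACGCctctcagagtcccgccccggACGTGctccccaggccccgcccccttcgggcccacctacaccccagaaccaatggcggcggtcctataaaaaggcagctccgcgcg
Slc16a3, chr11:120948817-120949116, plus strand: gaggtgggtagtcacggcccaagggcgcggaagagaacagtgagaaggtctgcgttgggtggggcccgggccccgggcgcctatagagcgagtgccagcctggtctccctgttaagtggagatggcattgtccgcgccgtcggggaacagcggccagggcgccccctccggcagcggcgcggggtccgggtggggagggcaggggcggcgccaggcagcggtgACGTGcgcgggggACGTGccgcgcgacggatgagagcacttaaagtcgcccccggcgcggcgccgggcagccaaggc
Hk2, chr6:82774405-82774704, minus strand: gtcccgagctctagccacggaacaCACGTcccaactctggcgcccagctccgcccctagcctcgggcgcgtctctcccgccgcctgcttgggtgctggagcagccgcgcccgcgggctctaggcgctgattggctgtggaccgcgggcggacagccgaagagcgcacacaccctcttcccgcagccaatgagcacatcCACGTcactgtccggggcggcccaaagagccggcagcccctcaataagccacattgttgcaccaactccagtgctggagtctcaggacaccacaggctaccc
Aldoc, chr11:78322823-78323122, plus strand: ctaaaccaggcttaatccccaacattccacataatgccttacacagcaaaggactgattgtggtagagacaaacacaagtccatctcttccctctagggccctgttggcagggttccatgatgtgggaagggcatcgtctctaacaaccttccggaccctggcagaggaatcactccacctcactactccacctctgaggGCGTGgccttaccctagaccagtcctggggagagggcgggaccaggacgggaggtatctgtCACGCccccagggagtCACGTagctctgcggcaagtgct
Pgk1, chrX:106186850-106187149, plus strand: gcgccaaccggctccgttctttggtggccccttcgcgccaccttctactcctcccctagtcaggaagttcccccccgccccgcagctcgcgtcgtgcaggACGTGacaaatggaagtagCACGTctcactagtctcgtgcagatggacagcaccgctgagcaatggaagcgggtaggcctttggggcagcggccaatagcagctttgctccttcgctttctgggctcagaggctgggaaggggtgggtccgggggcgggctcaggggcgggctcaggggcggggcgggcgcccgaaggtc
Ldha, chr7:46845554-46845853, plus strand: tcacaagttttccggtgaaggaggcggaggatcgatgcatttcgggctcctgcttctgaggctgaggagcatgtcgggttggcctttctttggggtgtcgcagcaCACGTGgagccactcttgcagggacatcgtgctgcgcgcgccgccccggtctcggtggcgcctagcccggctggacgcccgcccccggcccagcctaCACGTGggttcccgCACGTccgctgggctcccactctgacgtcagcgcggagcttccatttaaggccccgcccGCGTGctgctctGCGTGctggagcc
Slc2a1, Slc16a3, Hk2 and Pgk1 held 2 cores each, the Aldoc window 3 and the Ldha window 7. Pfkp held 4 and the first Pdk1 window 2, and Tpi1 held none. Any link between these motifs and the levels was not tested.

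Before stimulation, TMem cells had higher levels of Slc2a1, Slc16a3, the 5 glycolysis enzymes and Ldha than TN cells, and a lower level of Pdk1. At 0 h, 9 of the 10 genes were higher in TMem and Pdk1 was lower, where 35.9% of all genes were called, 18.4% as higher and 17.5% as lower. The median difference of the 10 was 1.17, against 0.02 over all genes. Of all calls 51.2% were higher, and 34.4% with each array centred on its median, which moved the median of all genes to -0.10.

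The lactate exporter Slc16a3 had levels of 9.69, 9.19 and 8.49 in TMem and 7.13, 7.23 and 7.34 in TN. Each TMem array was above each TN array, and the difference was 1.89 (SE 0.18, adjusted p = 9.51e-10). For Tpi1 the levels were 11.04, 10.95 and 10.27 in TMem and 9.19, 8.84 and 8.92 in TN, a difference of 1.77 (SE 0.13, adjusted p = 6.90e-12). Pfkp differed by 1.60 (SE 0.11), Aldoc by 1.54 (SE 0.17), Hk2 by 1.34 (SE 0.15), Slc2a1 by 1.00 (SE 0.13), Pgk1 by 0.96 (SE 0.11) and Ldha by 0.72 (SE 0.07), and in each the groups did not overlap. In all, 8 of the 10 had TMem arrays above all TN arrays and 1 had them below, against 18.7% and 17.1% of all genes. Pgk1 lies on the X chromosome, whose transcripts of Xist differed between these groups.

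The second glucose transporter, Slc2a3, had levels of 9.73, 9.45 and 8.83 in TMem and 8.31, 8.98 and 9.13 in TN, and the groups overlapped. Its difference of 0.53 (SE 0.16) was called at adjusted p = 0.00925, and the call was lost without TN replicate 1 (0.29, adjusted p = 0.147), without TMem replicate 1 (0.33, adjusted p = 0.119) and with only these 6 arrays fitted (adjusted p = 0.204). Pdk1 ran the other way, with 9.55, 9.45 and 9.83 in TMem and 10.06, 10.07 and 10.09 in TN. All TMem arrays were below all TN arrays, and the difference was -0.46 (SE 0.11, adjusted p = 0.00148). Without TMem replicate 3 or without TN replicate 1, 10 and 9 of the 10 genes were called.

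The rest of the pathway was mixed at 0 h. Of 16 other glycolysis enzymes, 7 were higher in TMem and 3 lower: Pgam1 (1.64), Pkm (1.28) and Aldoa (1.19), a mutase, pyruvate kinase and the main aldolase, were higher, and Galm (-0.84) was lower. Of 12 genes for the entry of pyruvate into mitochondria or its use there, 3 were higher and 7 lower. Among the lower ones were the dehydrogenase subunits Pdhb (-0.70) and Pdha1 (-0.42), the phosphatase Pdp1 (-0.69), which switches the enzyme on, and the kinase Pdk2 (-0.74), which switches it off. Among 8 other lactate genes, Ldhb, the subunit that favours pyruvate, was lower by 1.19 on the log2 scale, Emb by 0.69 and Slc16a7 by 0.34, whereas Bsg, a chaperone of lactate transporters, was higher (0.41). Of 18 regulators, 7 were higher and 4 lower: Hif1a, the oxygen-sensitive subunit of HIF-1, differed by 1.16, Myc by 0.92, Bhlhe40 by 3.53 and Irf4 by 2.90, and Txnip, a brake on glucose uptake, by -1.19. Markers of other cells moved too. The summed log2 levels of 8 mast cell and basophil markers were 49.8 to 52.9 in TMem and 44.7 to 45.9 in TN, and those of 5 erythroid and platelet markers were 37.1 to 37.4 in TMem and 32.7 to 34 in TN. Of the mast cell markers, 2 were near background in TMem (Mcpt4 and Ms4a2) and 4 in TN (these with Fcer1a and Cma1). Of the erythroid markers 0 were near background in either. Their part in the differences was not tested.

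After 18 h of stimulation alone, Hk2 and Slc2a1 had risen and Pdk1 had fallen in both cell types. Hk2 had mean levels of 7.85, 9.66 and 9.40 in TMem alone at 0, 18 and 96 h, and of 6.51, 8.07 and 8.14 in TN alone. At 18 h against 0 h the difference was 1.81 in TMem (SE 0.15, adjusted p = 1.58e-10) and 1.56 in TN (SE 0.15, adjusted p = 3.30e-09). Pdk1 had mean levels of 9.61, 8.97 and 9.45 in TMem alone and 10.07, 9.14 and 9.0 in TN alone over the same times. It was lower at 18 h than at 0 h by 0.64 in TMem and by 0.94 in TN, both called.

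At 18 h against 0 h, 3 of the 10 genes were higher and 2 lower in TMem alone (35.3% of all genes called, 18% higher and 17.3% lower). In TN alone 6 were higher and 1 lower (33.8% called, 17.1% higher and 16.7% lower). In TMem alone Slc2a1 (0.54) and Ldha (0.18) rose beside Hk2. Aldoc fell there, with levels of 7.004, 6.935 and 7.034 at 18 h and 8.70, 8.53 and 7.61 at 0 h, a difference of -1.29 (SE 0.17, adjusted p = 4.49e-07). In TN alone, Pfkp (0.77), Slc2a1 (0.73), Ldha (0.57), Tpi1 (0.49) and Pgk1 (0.29) rose beside Hk2, although the Pgk1 groups overlapped. Centring the arrays moved the median of all genes from -0.02 to -0.15 in TN, and the share of higher calls from 50.7% to 30%. Other transcripts moved with these times. In TMem alone the summed mast cell and basophil markers were 43.7 to 44.4 at 18 h and 49.8 to 52.9 at 0 h (5 of 8 lower), and the erythroid and platelet markers 31.6 to 32 at 18 h and 37.1 to 37.4 at 0 h (4 of 5 lower). B cell sums were lower at 18 h in TMem alone (41 to 41.8 against 42.7 to 44.3) and TN alone (41.6 to 42 against 43.3 to 44.2). So were CD4 sums in TMem alone (39.8 to 40.1 against 40.5 to 41.9). In TN alone mast cell sums (44 to 44.5 against 44.7 to 45.9) and erythroid sums (32.3 to 32.5 against 32.7 to 34) were lower too. There all 4 sex chromosome genes were higher at 18 h, by up to 3.95, with the Y-linked ones near background at 0 h. Their part was not tested.

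The responses at 18 h differed between the cell types for 3 of the 10 genes, and also for all 4 sex chromosome genes (lower, median -2.61), whose part was not tested. Of all genes 28.9% were called and 14.7% were lower. The response in TMem minus that in TN was -0.94 for Pfkp (responses -0.17 and 0.77, adjusted p = 1.83e-05), -1.0 for Aldoc (-1.29 and -0.29, adjusted p = 0.00209) and -0.39 for Ldha (0.18 and 0.57, adjusted p = 0.00461). Of all such calls, 49.2% were higher, 70.7% with centred arrays and 60.3% after quantile normalization, and centring moved the median of all genes to 0.12. The call of Ldha was lost with centred arrays and when only these groups were fitted, with adjusted p between 2.72e-05 and 0.137 over its alternatives. The regulator Myc rose at 18 h by 1.35 in TMem and 2.16 in TN, Txnip fell by 1.57 in TMem and 0.99 in TN, and Hif1a differed by 0.16 in TMem (not called) and rose by 0.99 in TN.

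At 96 h against 0 h, 9 of the 10 genes were higher in TMem alone and 0 lower (24.5% of all genes called, 16.1% higher), all but Pdk1 (-0.16). In TN alone, 6 were higher and 2 lower (36.4% called, 18.6% higher and 17.9% lower): Hk2 (1.63), Tpi1 (1.45), Pfkp (1.32), Pgk1 (0.80), Ldha (0.70) and Slc2a1 (0.47) rose, and Slc2a3 (-0.43) and Pdk1 (-1.07) fell. Of all calls in TN 51% were higher, and 35.3% with centred arrays. Slc2a3 in TMem alone was at 10.16, 10.23 and 10.21 at 96 h and 9.73, 9.45 and 8.83 at 0 h. In TN alone it was at 8.34, 8.46 and 8.32 at 96 h and 8.31, 8.98 and 9.13 at 0 h, so that the TN groups overlapped and the TMem groups did not. Markers of other cells differed too, and their part was not tested. In TMem alone the mast cell sums were 45.4 to 46.4 at 96 h and 49.8 to 52.9 at 0 h, and the erythroid sums 31.5 to 32.1 at 96 h and 37.1 to 37.4 at 0 h. The NK cell sums of TMem alone were 30.3 to 30.6 at 96 h and 26.1 to 27.4 at 0 h. Its CD4 sums (38.9 to 39.4 against 40.5 to 41.9) and B cell sums (41.1 to 41.9 against 42.7 to 44.3) were lower at 96 h. In TN alone, 96 h stood above 0 h for NK cell (30.4 to 30.5 against 26.5 to 28.3), CD4 (44.3 to 44.6 against 41.2 to 41.6), mast cell (49.6 to 50.6 against 44.7 to 45.9) and myeloid markers (76.1 to 77 against 71.5 to 74.1).

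Between 18 h and 96 h, 7 of the 10 genes rose in TMem mix, TMem alone and TN mix alike and Pdk1 rose with them, whereas Hk2 was called in no group. At 96 h against 18 h, 8 of the 10 were higher in TMem mix (27.6% of all genes called, 16.1% higher) and 8 in TMem alone (24.4% called, 14.6% higher), in both all but Hk2 and Ldha. In TN mix 9 were higher, Ldha among them (37.1% called, 20.6% higher), and in TN alone 4 (24.4% called, 11.3% higher), and 0 were lower in any. The 4 in TN alone were Tpi1 (0.96), Pfkp (0.55), Aldoc (0.52) and Pgk1 (0.51). With only these groups fitted, 7 of the 10 were called there, and the cause was not tested. Calls over all genes in TN alone ranged from 4117 to 7280 over the alternatives (4873 as reported). The differences of Hk2 lay between -0.26 and 0.09 in the 4 groups. Aldoc rose by 3.53 in TMem mix, 2.33 in TMem alone, 3.54 in TN mix and 0.52 in TN alone. In TN alone 3 of the 4 sex chromosome genes were lower at 96 h than at 18 h, with differences down to -3.98. There the summed markers at 96 h were above those at 18 h for myeloid (76.1 to 77 against 70.4 to 71.5), NK (30.4 to 30.5 against 25.8 to 26.5), CD4 (44.3 to 44.6 against 41.4 to 41.9) and mast cells (49.6 to 50.6 against 44 to 44.5). The NK cell sums were also higher at 96 h in TMem mix (29.5 to 30.4 against 26.3 to 26.4) and TMem alone (30.3 to 30.6 against 25.7 to 26.7). So were the myeloid sums in TMem mix (72.6 to 73.7 against 70 to 72) and TMem alone (73.2 to 74.3 against 69.5 to 71.1). Mast cell sums rose in TMem mix (45.7 to 46.8 against 43.2 to 45.1) and TMem alone (45.4 to 46.4 against 43.7 to 44.4). They also rose in TN mix (45.9 to 46.8 against 43.3 to 44.4). CD4 sums fell in TMem mix (39.2 to 39.7 against 40.3 to 40.4) and TMem alone. B cell sums rose in TN mix and TN alone, and erythroid sums in TN alone. Their part was not tested.

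At 96 h, TN cells from mixed cultures had higher levels of all 10 genes than TN cells stimulated alone. The largest differences were those of aldolase C (Aldoc), the lactate exporter and both glucose transporters, and the smallest that of Ldha. All 10 were called in the fit without pairs, 9 with the replicates as a block and 8 to 9 with an array of these groups left out. Of all genes, 10.6% were called in either direction and 7% were higher. The median difference of the 10 genes was 0.87, against 0.05 over all genes. As the 10 were chosen with earlier results of these data known, such shares and medians describe them and do not test them. The 3 arrays of each group did not overlap for any of the 10, as was so for 17.6% of all genes in the same direction.

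The transporters were all higher in TN mix. Slc2a1 (GLUT1), the main glucose carrier of activated T cells, had levels of 12.12, 11.95 and 11.89 in TN mix and 10.56, 10.57 and 10.53 in TN alone. The difference was 1.43 (SE 0.13, 2.7-fold, adjusted p = 4.08e-09). Slc2a3 (GLUT3), a carrier with high affinity for glucose, had 10.14, 10.29 and 10.16 in TN mix and 8.34, 8.46 and 8.32 in TN alone. Its difference was 1.83 (SE 0.16, 3.55-fold, adjusted p = 3.98e-09), rank 18 of all genes from the highest. Slc16a3 (MCT4), which exports lactate, had 9.82, 10.12 and 9.79 in TN mix and 7.80, 7.52 and 7.69 in TN alone, a difference of 2.24 (SE 0.18, 4.72-fold, adjusted p = 4.96e-10).

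The enzymes followed with smaller differences, except for Aldoc. Aldoc had levels of 9.53, 9.69 and 9.79 in TN mix and 6.86, 6.96 and 7.10 in TN alone, a difference of 2.70 (SE 0.17, 6.49-fold, adjusted p = 8.27e-12), rank 8 of all genes. Tpi1 had 11.33, 11.45 and 11.38 in TN mix and 10.38, 10.54 and 10.38 in TN alone, a difference of 0.96 (SE 0.13, adjusted p = 5.78e-06). For both genes the lowest TN mix array stood well above the highest TN alone array. Pfkp had 10.97, 11.15 and 11.10 in TN mix and 10.27, 10.29 and 10.33 in TN alone, a difference of 0.78 (SE 0.11, adjusted p = 5.88e-06). For Pgk1 the levels were 11.96, 11.96 and 12.02 in TN mix and 11.29, 11.35 and 11.31 in TN alone, a difference of 0.67 (SE 0.11, adjusted p = 7.16e-05).

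Of the last 3 genes, Hk2 and Ldha had calls that depended on the arrays or the fit and Pdk1 did not. Hk2 had 8.54, 9.02 and 8.61 in TN mix and 8.10, 8.19 and 8.15 in TN alone, a difference of 0.58 (SE 0.15, adjusted p = 0.0122), which was 0.43 (adjusted p = 0.112) without TN mix replicate 2. Ldha had 12.95, 12.95 and 12.92 in TN mix and 12.69, 12.76 and 12.70 in TN alone, a difference of 0.22 (SE 0.07, adjusted p = 0.0446). That call was lost without any one of the 6 arrays, with only these groups fitted (adjusted p = 0.151) and with the replicate pairs as a block in these groups (adjusted p = 0.0793), so that 9 of the 10 were called in the paired fit. Pdk1 had 9.44, 9.95 and 9.84 in TN mix and 8.95, 8.98 and 9.08 in TN alone, a difference of 0.74 (SE 0.11, adjusted p = 2.88e-05).

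**Figure D2:**
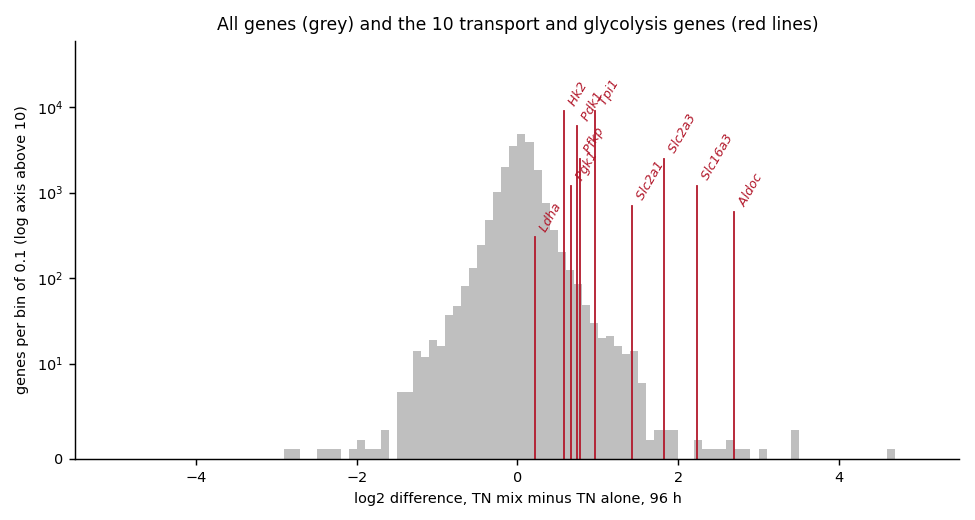
Number of genes (vertical axis, logarithmic above 10) by log2 difference of TN mix minus TN alone at 96 h (horizontal axis, bins of 0.1); grey bars are all 19938 genes and red lines the 10 genes of glucose and lactate use, whose heights carry no value. The red lines stand between 0.22 for Ldha and 2.70 for Aldoc, against a median of 0.05 over all genes.

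The remaining pathway genes gave 20 higher and 2 lower calls among 80 in TN cells at 96 h. Of 16 other glycolysis enzymes 5 were higher in TN mix and 1 lower: Pfkl (1.10), a phosphofructokinase, Aldoa (0.72) and Pkm (0.62) rose, and Eno3 (-0.66), an enolase, fell. Their median was 0.22. Of 8 other glucose transporters 1 was higher, Slc2a6 (0.72). Of 4 enzymes that set fructose 2,6-bisphosphate, the activator of phosphofructokinase, Pfkfb3 (0.40) and Pfkfb4 (0.30) rose. Of 8 other lactate genes 2 rose, the transporter chaperones Emb (0.56) and Bsg (0.37). Of 12 genes for the entry of pyruvate into mitochondria or its use there, 0 rose and 1 fell, the kinase Pdk2 (-0.64), a relative of Pdk1. The pentose phosphate pathway had 2 of 7 higher, Pgd (0.42) and Rpia (0.45), and gluconeogenesis 2 of 7, Pck2 (0.71) and Pcx (0.69).

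Among 18 regulators, 6 were higher and 0 lower in TN mix at 96 h. Egln3 and Egln1, which mark HIF subunits for destruction and are induced by HIF, rose by 2.30 and 0.94, Bhlhe40 by 0.90 and Hif1a by 0.81. Hif1a had levels of 11.48, 11.36 and 11.43 in TN mix and 10.48, 10.65 and 10.70 in TN alone. Myc (-0.14, adjusted p = 0.478) and Txnip (0.23, adjusted p = 0.169) were not called.

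The sex chromosome transcripts and markers of other cells also differed between these 2 groups. Converted to the linear scale, on which array signal is only roughly proportional to RNA, the mean of TN mix lay 31.2% to 34.6% of the way between TN alone and TMem mix for Eif2s3y, Uty and Kdm5d and 31.6% for Xist. For the 10 genes it lay between 39.3% for Hk2 and 104% for Pdk1, with a median of 73.6%. On the log2 scale the positions were 60.4% to 68.7% for the Y-linked genes, 8.43% for Xist, and between 48.4% for Hk2 and 102% for Pdk1. The summed log2 levels of TN mix lay below those of TN alone for 12 myeloid and dendritic markers (70.7 to 73 against 76.1 to 77), 5 NK cell markers (26 to 26.7 against 30.4 to 30.5), 6 CD4 T cell markers (40.9 to 41.7 against 44.3 to 44.6) and 8 mast cell and basophil markers (45.9 to 46.8 against 49.6 to 50.6). They overlapped for 7 B cell markers (43.2 to 44.4 against 43.6 to 43.7) and 5 erythroid and platelet markers (32.4 to 34.2 against 33.8 to 34.7). Of the myeloid markers Lyz2, Adgre1 and S100a8 were near background in TN mix, and Adgre1 and S100a8 in TN alone. Of the NK cell markers 4 were near background in TN mix and 2 in TN alone. Of the B cell markers 3 were near background in both, of the CD4 markers 1 and of the mast cell markers 4. TMem arrays carried the Y-linked transcripts, and so did TN alone at 18 h, cultured without TMem cells (Eif2s3y 8.09 to 8.25). Whether the TN mix arrays held TMem RNA, came from donors of both sexes or were mislabelled was not tested. Each of these would change what every difference between TN mix and TN alone stands for. The part of the other cells was not tested either.

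**Figure D3:**
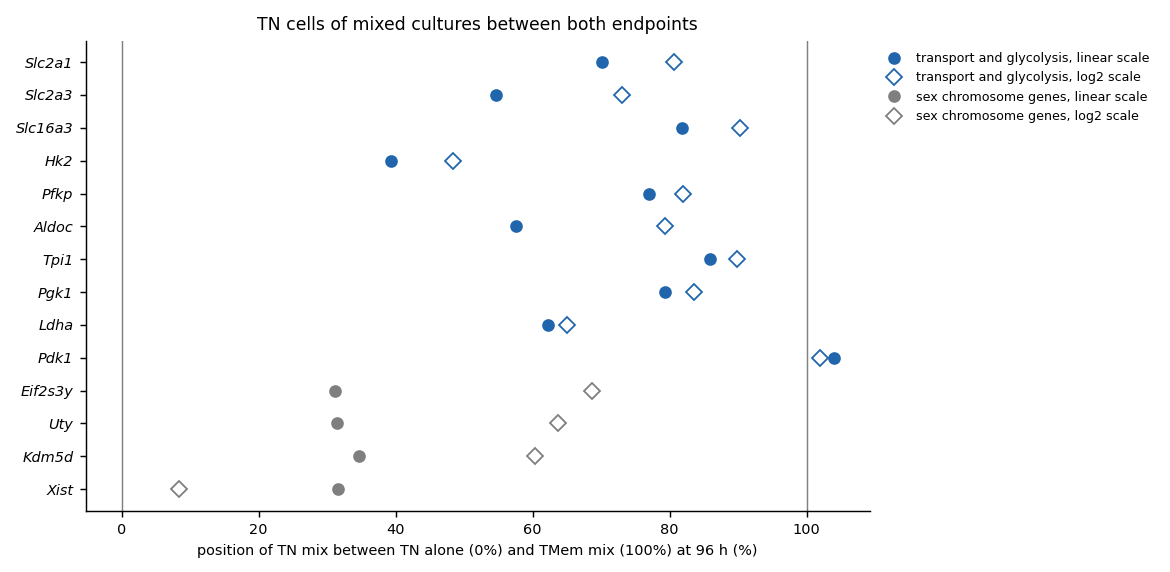
Position of the TN mix mean between TN alone (0%) and TMem mix (100%) at 96 h (horizontal axis, percent) for each gene (vertical axis); filled circles are on the linear scale and open diamonds on the log2 scale, blue for the 10 genes of glucose and lactate use and grey for sex chromosome genes. On the linear scale the 10 genes lay at 39.3% to 104% and the Y-linked genes at 31.2% to 34.6%.

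In TMem cells at 96 h, mixing went with higher levels of 2 of the 10 genes and lower levels of 0, where 1.12% of all genes were called and 0.968% were higher. Aldoc had 10.47, 10.31 and 10.33 in TMem mix and 9.21, 9.45 and 9.30 in TMem alone. The difference was 1.05 (SE 0.17, adjusted p = 5.97e-04), rank 6 of all genes. Slc2a3 had 10.87, 10.91 and 10.84 in TMem mix and 10.16, 10.23 and 10.21 in TMem alone, a difference of 0.67 (SE 0.16, adjusted p = 0.0273). In 6 of the 10, these among them, the TMem mix arrays lay above the TMem alone arrays, as was so for 11.1% of all genes. The call of Slc2a3 was lost without any one of the 6 arrays, with adjusted p between 4.86e-06 and 0.136 over its alternatives. The other 8 differed by -0.05 for Hk2 to 0.28 for Pdk1. Of the other pathway genes 2 were called: Galm (0.47), which interconverts forms of glucose, and Txnip (0.80). Hif1a (0.16) and Myc (0.00) were not called.

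At 96 h the effect of mixing was larger in TN than in TMem for 7 of the 10 genes, where 3.54% of all genes were called and 1.92% were higher. The effect in TN minus that in TMem was 2.27 for Slc16a3 (2.24 and -0.03, adjusted p = 7.40e-07), 1.65 for Aldoc (2.70 and 1.05, adjusted p = 6.44e-05) and 1.30 for Slc2a1 (1.43 and 0.13, adjusted p = 2.33e-05). It was 1.15 for Slc2a3, 0.85 for Tpi1, 0.67 for Pfkp and 0.56 for Pgk1. The Pgk1 call (adjusted p = 0.0361) was lost without any one of the 12 arrays, with centred arrays and with the mean of its rows. For Hk2 (0.64, adjusted p = 0.124), Ldha (0.22, adjusted p = 0.326) and Pdk1 (0.46, adjusted p = 0.124) the difference was not called.

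**Figure D4:**
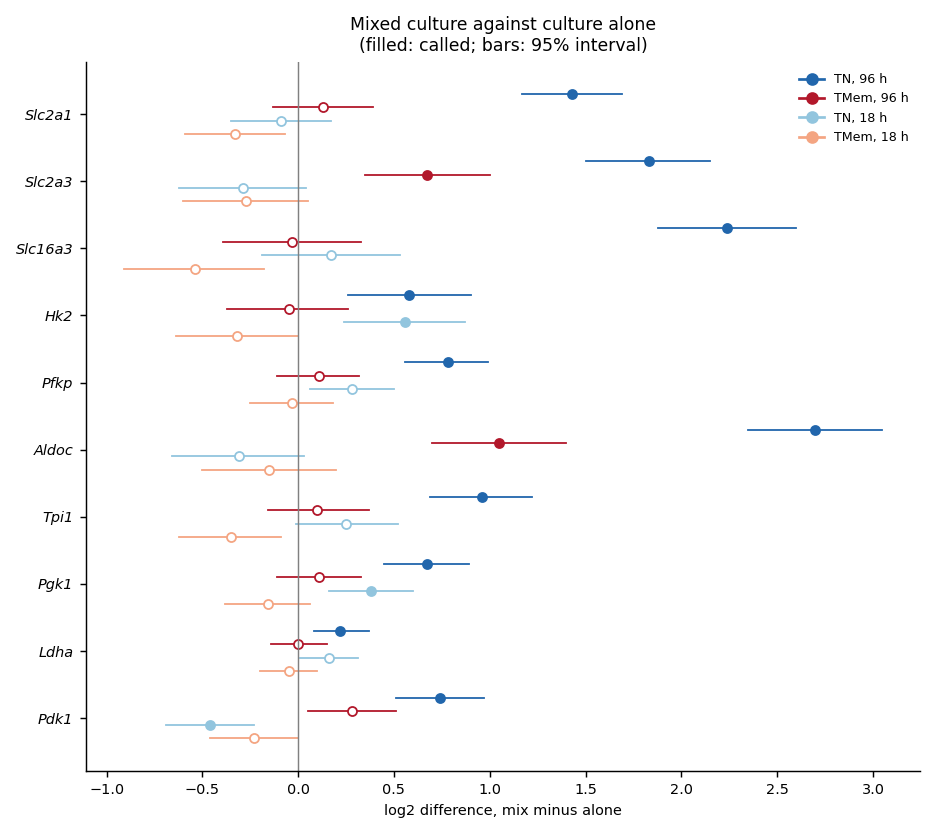
Log2 difference of mix minus alone (horizontal axis) for each gene (vertical axis) in TN and TMem at 96 h and 18 h; points are estimates from 3 arrays per group, bars 95% intervals, and filled points are called. The TN points at 96 h run from 0.22 for Ldha to 2.70 for Aldoc, and the TMem points at 18 h lie below 0, down to -0.54 for Slc16a3.

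At 18 h the effect of mixing in TN was small and went both ways. Of the 10 genes 2 were higher in TN mix and 1 lower, where 14.4% of all genes were called, 6.3% higher and 8.15% lower. Hk2 had levels of 8.64, 8.47 and 8.79 in TN mix and 8.033, 8.186 and 8.004 in TN alone, a difference of 0.56 (SE 0.15, adjusted p = 0.0133). Pgk1 had 11.21, 11.14 and 11.21 in TN mix and 10.92, 10.71 and 10.79 in TN alone, a difference of 0.38 (SE 0.11, adjusted p = 0.0151). Pdk1 had 8.80, 8.51 and 8.74 in TN mix and 9.16, 9.08 and 9.17 in TN alone, a difference of -0.46 (SE 0.11, adjusted p = 0.00521). In these and 5 further genes the groups did not overlap: TN mix lay above TN alone in 5 and below in 3 of the 10, against 16.7% and 17.4% of all genes. The other 7 lay between -0.31 for Aldoc and 0.28 for Pfkp.

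Several calls at 18 h in TN hung on single arrays: that of Hk2 was lost without replicate 3 of TN mix or of TN alone, and that of Pgk1 without TN mix replicate 1 or TN alone replicate 2. With array weights 6 of the 10 genes were called, and 8 when the fit held no 0 h array, an alternative chosen after seeing the data. Of all calls 43.6% were higher, and 54.3% with centred arrays. Of 16 other glycolysis enzymes 0 were called by limma at 18 h. Among the rest, the glucose transporter Slc2a6 (0.70) and the lactate carrier Slc16a1 (0.40) rose, the pyruvate dehydrogenase subunits Dld (0.61) and Pdhb (0.50) rose, and Pdk2 (-0.88) fell. Of the regulators Bhlhe40 (1.05) rose and Txnip (-1.0), Mlxip (-0.54) and Epas1 (-0.46) fell, whereas Hif1a (0.25, adjusted p = 0.13) and Myc (0.10, adjusted p = 0.631) were not called.

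In TMem at 18 h, 0 of the 10 genes were called by limma, where 0.0301% of all genes were. At an unadjusted p under 0.05, 5 of the 10 were lower in TMem mix, against 1.38% of all genes: Slc16a3, Slc2a1, Tpi1, Hk2 and Pdk1. All 10 estimates were below 0, with a median of -0.25 against 0.03 over all genes. In 7 of the 10 the arrays of TMem mix lay below those of TMem alone, as was so for 4.67% of all genes. Slc16a3 had 8.83, 8.69 and 8.57 in TMem mix and 9.28, 9.30 and 9.15 in TMem alone, a difference of -0.54 (SE 0.18, adjusted p = 1). With only these groups fitted its adjusted p was 0.0302, and it was the 1 gene of the 10 called there. With array weights 3 of the 10 were called. Calls over all genes ranged from 1 to 100 over the alternatives (6 as reported).

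The effect of mixing at 18 h differed between the cell types for 2 of the 10 genes (5.17% of all genes called, 1.44% higher): the effect in TN minus that in TMem was 0.88 for Hk2 (0.56 and -0.32, adjusted p = 0.0138) and 0.54 for Pgk1 (0.38 and -0.16, adjusted p = 0.0334). The Pgk1 call was lost with the mean of its rows and when any of 10 arrays was left out, all but TN mix replicate 2 and TN alone replicate 1. Of all calls 27.8% were higher, and 38% with centred arrays. Between times, the effect of mixing in TN was larger at 96 h than at 18 h for 7 of the 10 genes (12.4% of all genes called, 8.16% higher). The Y-linked Eif2s3y had means of 8.36 in TN mix and 8.14 in TN alone at 18 h. At 96 h its means were 7.64 in TN mix and 4.17 in TN alone. The part of this change in the calls was not tested. The effect at 96 h minus that at 18 h was 3.01 for Aldoc (2.70 and -0.31), 2.12 for Slc2a3 (1.83 and -0.29), 2.07 for Slc16a3 (2.24 and 0.17), 1.52 for Slc2a1 (1.43 and -0.09), 1.20 for Pdk1 (0.74 and -0.46), 0.70 for Tpi1 and 0.50 for Pfkp. The Pfkp call (adjusted p = 0.0262) was lost without TN mix replicate 2 or 3 at 96 h, TN mix replicate 2 at 18 h, or TN alone replicate 1 at either time. For Hk2 it was 0.02 (95% interval -0.42 to 0.47, adjusted p = 0.956). In TMem 1 of the 10 was called (0.196% of all genes), Aldoc, at 1.20 (1.05 and -0.15, adjusted p = 0.0275), a call lost when any of 10 arrays was left out, all but TMem mix replicate 3 at 18 h and TMem alone replicate 2 at 96 h.

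Under stimulation, the gap between TMem and TN at 96 h was narrower in mixed cultures (median of the 10 genes 0.21) than in cultures alone (1.11). TMem exceeded TN for 7 of the 10 genes in mix at 18 h (20.4% of all genes called, 11.8% higher) and for 9 in alone at 18 h (28.9% called, 15.4% higher). At 96 h it did so for 3 in mix (10.6% called, 6.68% higher) and for all 10 in alone (22.2% called, 14.1% higher), and 0 of the 10 were lower in any. The difference between the 2 cultures in this gap is the difference between the effects of mixing, given above. At 96 h TN mix carried the Y-linked Eif2s3y (7.34 to 7.89), as all TMem arrays did, whereas TN alone had it near background (4.13 to 4.20). The part of this in the narrower gap was not tested. At 96 h Slc16a3 differed by 0.24 in mix (adjusted p = 0.427) and by 2.50 in alone (adjusted p = 1.11e-11), and Slc2a1 by 0.34 in mix (adjusted p = 0.0831) and by 1.65 in alone (adjusted p = 5.41e-11). The 3 called in mix at 96 h were Slc2a3 (0.67), Hk2 (0.62) and Aldoc (0.70). Slc2a1, Pfkp (0.17), Pgk1 (0.13) and Ldha (0.12) were not called in mix, but there each TMem array was above each TN array. The share of all genes with such a separation was not taken. Tpi1 had 11.37, 11.62 and 11.50 in TMem mix and 11.33, 11.45 and 11.38 in TN mix, with overlapping groups and a difference of 0.11 (95% interval -0.16 to 0.37). Pdk1 in mix differed by -0.01 (95% interval -0.24 to 0.22).

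**Figure D5:**
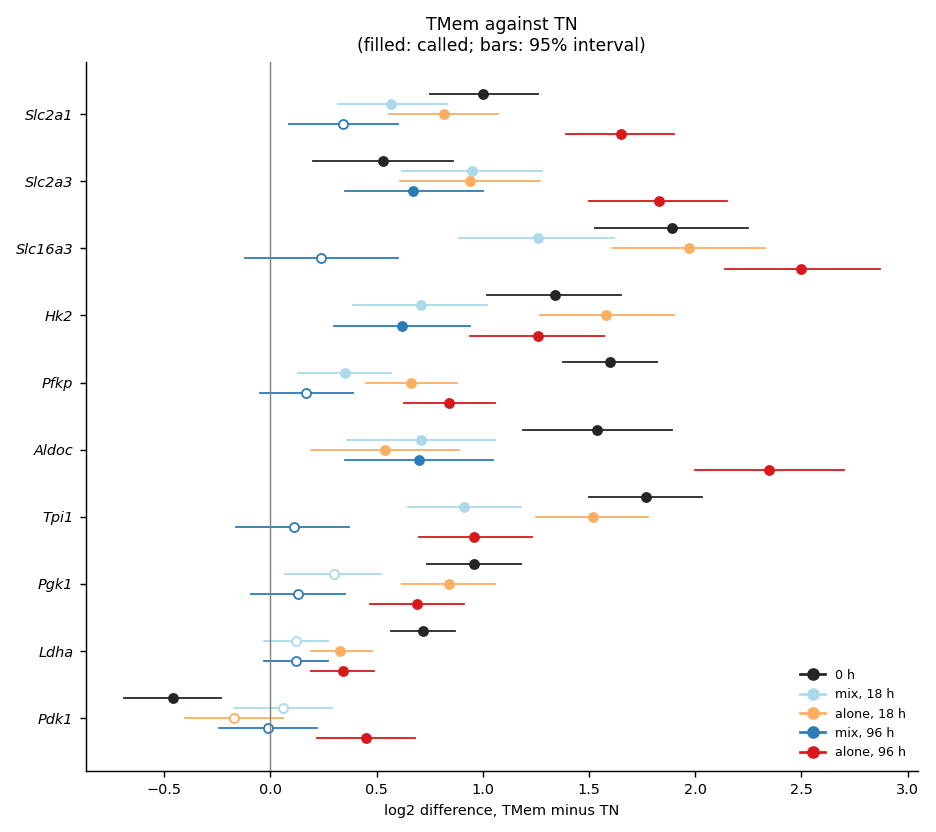
Log2 difference of TMem minus TN (horizontal axis) for each gene (vertical axis) at 0 h and in mix and alone at 18 h and 96 h; points are estimates from 3 arrays per group, bars 95% intervals, and filled points are called. For Slc16a3 the difference was 1.89 at 0 h and 2.50 in alone at 96 h, and 0.24 in mix at 96 h.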

How the data were processed

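RNA of the 30 samples was extracted, amplified over whole transcripts and labelled with biotin for Affymetrix arrays, per the labels. The authors deposited probe set values on a log2 scale. The submitters' processing notes name RMA and Partek, with no version, order or role given in the sources used. Values ran from 2.05 to 14.2 and array medians from 6.76 to 6.94, and they were used as deposited. The number of arrays limits the precision.

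Of 35556 rows, 21789 named 1 gene symbol and gave 19938 genes. The 1621 rows that named several genes and the 12146 not in the probe table used were left out. The row with the highest mean stood for a gene with several. The other 2 rows of Pgk1 were identical on all 30 arrays and correlated with the used one at 0.977. By gene number, 21698 rows matched RefSeq (GRCm38.p6). Of 89 genes in the other pathway lists 80 were measured.

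limma 3.58.1 in R 4.3.3 fitted 10 group means to all genes (20 residual degrees of freedom), with 2-sided tests and Benjamini-Hochberg adjustment within each comparison. For 3 arrays against 3, the smallest p of an exact permutation test is 0.1. A group mean below the lower quartile of its arrays (5.63 to 5.74) is called near background. The fit was tested on simulated data. Named genes are the 10, up to 4 genes of each pathway list with the smallest adjusted p in a comparison, Hif1a, Myc and Txnip, and the genes most alike in group means. The 10 genes and all lists were chosen with earlier results of these data known. Replicate numbers were taken to pair samples where every same-numbered pair deviated together (r over 0.1). This held only in TN mix against TN alone at 96 h (0.14 to 0.49), where replicate 3 did not match its own number best. The main values there come from the fit without pairs, and the paired count is given beside them. Alternatives were quantile normalization, centring, the mean of a gene's rows, a filter on low values, trend and robust options, array weights, only the groups compared, the replicate block and each array left out.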

Additional observations from a re-analysis of the deposited data

Results flagged for a closer look

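These results are listed because an effect differed between cell types or times by a test of the difference itself (limma over all genes). The effect of mixing in TN minus that in TMem was called for Hk2 (0.88) and Pgk1 (0.54) at 18 h. At 96 h it was called for Slc2a1 (1.30), Slc2a3 (1.15), Slc16a3 (2.27), Pfkp (0.67), Aldoc (1.65), Tpi1 (0.85) and Pgk1 (0.56). The effect of mixing in TN at 96 h minus that at 18 h was called for Slc2a1 (1.52), Slc2a3 (2.12), Slc16a3 (2.07), Pfkp (0.50), Aldoc (3.01), Tpi1 (0.70) and Pdk1 (1.20), and in TMem for Aldoc (1.20). The response to stimulation alone at 18 h in TMem minus that in TN was called for Pfkp (-0.94), Aldoc (-1.0) and Ldha (-0.39). Values are log2 differences of differences over 3 arrays per group.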

How the results depend on the processing

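Most counts among the 10 genes stayed within 1.5 times. Calls over all genes moved under the same alternatives, with the ranges given below. With array weights 6 were called in TN mix against TN alone at 18 h (3 as reported), 3 in TMem mix against TMem alone at 18 h (0 as reported), 7 in TN alone at 96 h against 18 h (4 as reported), 5 in TMem mix against TN mix at 96 h (3 as reported), 5 in the TN minus TMem effect of mixing at 18 h (2 as reported), 5 in the TMem effect of mixing at 96 h minus 18 h (1 as reported) and 7 in the response at 18 h (3 as reported). With only the groups compared these were 1 for TMem at 18 h, 7 for TN alone at 96 h against 18 h, 4 for TN minus TMem at 18 h and 4 for TMem at 96 h minus 18 h. With no 0 h arrays, chosen after seeing the data, they were 8 for TN mixing at 18 h, 1 for TMem at 18 h, 7 for TN alone at 96 h against 18 h, 5 for TN minus TMem at 18 h and 3 for TMem at 96 h minus 18 h. The mean of a gene's rows gave 1 for TN minus TMem at 18 h. With an array left out, counts were 8 to 9 for TN mixing at 96 h (10 as reported) and 1 for TMem mixing at 96 h (2 as reported). They were 1 to 3 for TN minus TMem at 18 h, 0 to 1 for TMem at 96 h minus 18 h and 3 to 5 for the response.

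With the replicate block, 9 of the 10 were called in TN mix against TN alone at 96 h. With the block in only the groups compared, a fit chosen after seeing the data, 1 was called in TMem mixing at 18 h and 7 in TN alone at 96 h against 18 h. The only all-array block counts that changed were TN mixing at 96 h, TMem alone at 18 h against 0 h (4, 5 as reported) and TMem against TN mix at 18 h (8, 7 as reported).

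Values not called changed sign as follows, and the causes were not tested. The TN minus TMem effect at 18 h of Slc2a3 (-0.01) was 0.01 with quantile normalization, 0.05 centred, 0.03 with array weights and -0.07 to 0.06 with an array left out. The TN effect at 96 h minus 18 h of Hk2 (0.02) was -0.02 centred, -0.14 with array weights and -0.12 to 0.12 with an array left out. In the response at 18 h, Slc16a3 (0.08) was -0.21 with array weights and -0.24 to 0.36 with an array left out, Hk2 (0.25) -0.08 and -0.03 to 0.50, and Pgk1 (-0.12) 0.06 centred and 0.12 with the mean of its rows. In TMem mixing, an array left out gave Pfkp -0.06 to 0.02 at 18 h, and at 96 h Slc16a3 -0.07 to 0.02, Hk2 -0.09 to 0.01 and Ldha 0.00 to 0.02.

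Over all genes, calls ranged over the alternatives from 1897 to 4853 in TN mixing at 18 h (2881 as reported), 1516 to 6343 in TN at 96 h (2117), 1 to 100 in TMem at 18 h (6), 105 to 906 in TMem at 96 h (223), 4091 to 8785 in TMem against TN at 0 h (7151), 3618 to 8205 alone at 96 h (4420), 3172 to 6107 mixed at 18 h (4070), 1273 to 4909 mixed at 96 h (2117) and 4083 to 7546 in TMem alone at 96 h against 18 h (4868). For TN minus TMem they were 734 to 2941 at 18 h (1031) and 531 to 3202 at 96 h (705), and for 96 h minus 18 h 1851 to 5147 in TN (2475) and 18 to 330 in TMem (39). In TN alone at 96 h against 18 h they were 4117 to 7280 (4873), and in the response at 18 h 4171 to 7016 (5754).

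Each group had 3 arrays, and background was judged only from each array's lower quartile. Sex chromosome transcripts matched the labels only in TN alone at 0 h and 96 h.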
